A study of Mus musculus with 12 samples.

Results

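The matrix metalloproteinases (MMPs) and their inhibitors were followed through 12 RNA-Seq libraries of mouse limb cartilage. The rows of the processed table whose gene symbol was *Mmp2*, *Mmp9*, *Mmp11*, *Mmp13*, *Mmp14*, *Mmp15*, *Mmp16*, *Timp1*, *Timp2* or *Timp3* were taken, 10 of 36186 rows. All samples came from the forelimb zeugopod, the segment of radius and ulna, at E15.5 on a mixed 129/CD-1 background, and were cut out by laser capture microdissection (LCM). Wild type (WT) gave 3 libraries each of resting, proliferative and hypertrophic chondrocytes, the last named hyperproliferative in the labels. The *aadd* mutants carry frameshifts in both copies of *Hoxa9*, *Hoxa10*, *Hoxa11*, *Hoxd9*, *Hoxd10* and *Hoxd11* and gave 3 libraries, each of the whole chondrocyte population, although the labels name their compartment resting. By the study's account, chondrocytes made up most of each sample and some perichondrium was captured with them. The study describes the replicates as independent sets of compartments. Whether each set was a separate embryo, and whether the replicate number marks a set, is not given in the sources used here, so the *P* values measure the spread between these libraries.

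MMPs are zinc-dependent endopeptidases that cut extracellular matrix. Most are secreted as inactive proenzymes and a few are held at the cell membrane, and the tissue inhibitors of metalloproteinases (TIMPs) bind and block their active sites. In a growth plate, chondrocytes rest, divide, enlarge and finally have their matrix removed as vessels and matrix-resorbing cells enter, and MMP13 from the last chondrocytes and MMP9 from invading cells are the best known enzymes of that step.

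Values are NRPKM, read numbers scaled to gene length and library size that the authors normalized further between libraries. They are per length, and levels of different genes are set side by side here as a description. The RNA was amplified and duplicate reads were removed, and the effect of these steps on levels between genes was not tested. A depth of 1890000 to 3240000 reads per library was read from the smallest values of single-exon genes, at which 1 read on 1 kb is worth 0.309 to 0.53 NRPKM. The 6 mutated Hox genes were detected in *aadd*, where a frameshift leaves the transcript countable, so their level does not check the labels. *Hoxd11* lay at 25.1 to 35.4 NRPKM in *aadd* and 4.34 to 7.31 in WT resting, and *Hoxa11* at 5.17 to 11.1 and 11.3 to 30.5.

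Hypertrophic replicate 1 stood apart from hypertrophic replicates 2 and 3, and its level is given separately for each of the 10 genes. Fits on hypertrophic libraries hold all 3 of them unless stated. Of the 10936 genes tested, 16.4% lay higher in both hypertrophic 2 and 3 than in any of the other 10 libraries and 14.8% lay lower. Among the MMPs and TIMPs, 6 of 10 lay higher in both (*Mmp9*, *Mmp11*, *Mmp13*, *Mmp14*, *Mmp15* and *Timp1*) and 0 lay lower. Without *Mmp15*, which is not among the genes tested, it was 5 of 9. All 3 hypertrophic libraries held markers of hypertrophic chondrocytes. *Col10a1*, the collagen that defines them, was 264, 166 and 221 NRPKM in hypertrophic 1, 2 and 3, against at most 111 in the proliferative and 5.79 in the resting libraries.

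The secreted collagenase *Mmp13* (Gene ID 17386, chr9:7272514-7283333 on the plus strand of mm10), which cuts fibrillar collagen, gave the widest contrast. It was 2.82, 2.45 and 2.88 NRPKM in the resting libraries. The proliferative libraries held 3.81, 4.12 and 6.24. Hypertrophic 1 held 3.05, hypertrophic 2 held 735 and hypertrophic 3 held 661. In *aadd* it was 2.13, 2.18 and 2.64. Thus 2 libraries carried a very high level and the other 10 lay between 2.13 and 6.24, with hypertrophic 1 below every proliferative library. The mean of hypertrophic 2 and 3 was 229 times the value of hypertrophic 1 and 148 times the proliferative mean. The low values rested on 12.8 to 31.5 reads per library on the longest transcript, and those of hypertrophic 2 and 3 on 6360 and 5270. In bulk samples such as these, fewer cells of a type and less RNA per cell cannot be told apart.

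The start of *Mmp13* is shown with that of *Mmp14* because their levels moved together over the 12 libraries. Each stretch holds the 250 bases before the annotated start in RefSeq (GRCm38.p6), 5′ to 3′ on the gene's strand, that of *Mmp13* at chr9:7272264-7272513 and that of *Mmp14* at chr14:54431348-54431597, both on the plus strand. Capitals mark matches on either strand to 3 motifs, TGANTCA (the AP-1 motif), ACCACA (core letters of the motif of Runx factors) and TATAAA (a core promoter element).
Mmp13: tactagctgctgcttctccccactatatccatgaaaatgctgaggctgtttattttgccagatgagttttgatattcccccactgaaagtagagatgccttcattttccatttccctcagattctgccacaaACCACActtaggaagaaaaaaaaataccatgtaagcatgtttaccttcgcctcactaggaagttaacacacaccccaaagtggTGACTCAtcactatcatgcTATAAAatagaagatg
Mmp14: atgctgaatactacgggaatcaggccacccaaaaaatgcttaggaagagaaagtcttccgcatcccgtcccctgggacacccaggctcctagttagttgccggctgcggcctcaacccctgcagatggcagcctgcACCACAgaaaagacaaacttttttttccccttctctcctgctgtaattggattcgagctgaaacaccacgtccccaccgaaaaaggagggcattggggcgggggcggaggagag
The *Mmp13* stretch held all 3 motifs, with TGACTCA at 35 to 29 bases before the start, ACCACA at 118 to 113 and TATAAA at 16 to 11. The *Mmp14* stretch held ACCACA at 114 to 109. Promoters were matched for 7 of the 10 genes (not *Mmp2*, *Mmp9* or *Mmp16*), and the other 5 held none of these letters in this window. Of 32851 RefSeq promoter windows of this length, 6.75% held TGANTCA, 14% ACCACA and 12.4% TATAAA. No motif overlapped another in these windows, and a match describes letters, not binding.

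*Mmp9* (Gene ID 17395, chr2:164948251-164955846, plus strand), a secreted gelatinase that digests denatured collagen and is abundant in osteoclasts, shared the pattern. Its resting levels were 3.02, 1.16 and 1.62 NRPKM. Proliferative levels were 8.10, 1.69 and 7.42. Hypertrophic 1 held 10.3, and hypertrophic 2 and 3 held 422 and 378. Unlike *Mmp13*, it was higher in hypertrophic 1 than in every resting, proliferative and *aadd* library, but the mean of hypertrophic 2 and 3 was still 38.9 times that value. The *aadd* libraries held 1.37, 1.45 and 1.34, within the resting range.

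*Mmp14* (Gene ID 17387, chr14:54431604-54441258, plus strand) encodes a membrane-anchored MMP that activates proMMP2 and cuts collagen itself. It was well expressed everywhere, at 44.0, 62.6 and 69.8 NRPKM in resting, 63.3, 45.4 and 75.3 in proliferative and 45.8, 82.6 and 48.0 in *aadd* libraries. Hypertrophic 1, at 62.1, lay inside those ranges, whereas hypertrophic 2 and 3 held 197 and 189, 3.11 times as much on average. The means of resting, proliferative and *aadd* libraries (58.8 ± 13.3, 61.3 ± 15.1 and 58.8 ± 20.6, SD, n = 3) did not differ beyond their spread.

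*Mmp2* (Gene ID 17390, chr8:92827328-92853420, plus strand), the other gelatinase and the substrate of MMP14, ran the other way and was the most abundant MMP in every library other than hypertrophic 2 and 3. It was 75.6, 124 and 128 NRPKM in resting, 71.7, 82.2 and 90.4 in proliferative, 64.1, 67.6 and 74.8 in hypertrophic and 122, 126 and 95.6 in *aadd* libraries. Here hypertrophic 1 stood beside hypertrophic 2 and 3, and every hypertrophic library lay below every resting one. The margin was thin, as hypertrophic 3 (74.8) was next to resting 1 (75.6), the lowest resting library. The order of the means was *aadd* (115 ± 16.6), resting (109 ± 29.2), proliferative (81.4 ± 9.40) and hypertrophic (68.8 ± 5.47), and each neighbouring pair in it overlapped.

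*Mmp16* (Gene ID 17389, chr4:17852893-18118734, plus strand), a further membrane-type MMP, varied least among the MMPs. Resting libraries held 23.0, 34.2 and 41.0 NRPKM, proliferative 29.8, 30.4 and 32.6, hypertrophic 26.8, 23.0 and 32.4, and *aadd* 34.5, 33.7 and 29.0. All 4 groups overlapped.

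*Mmp11* (Gene ID 17385, chr10:75923224-75932463, minus strand), a stromelysin activated inside the cell by furin, was low. Resting levels were 6.78, 9.27 and 2.26 NRPKM and proliferative levels 4.76, 0.931 and 2.94. Hypertrophic 1 held 4.87, and hypertrophic 2 and 3 held 24.1 and 16.6. The *aadd* libraries held 10.6, 11.3 and 10.9, all above the resting and proliferative libraries and closer together than in any other group. Of its exonic bases, 5.58% are shared with *Chchd10* on the opposite strand (0 to 22.7 NRPKM), and the use of strand in counting is not given in the sources used here.

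*Mmp15* (Gene ID 17388, chr8:95352337-95374293, plus strand), also a membrane-type MMP, was the lowest of the 10. It reached 0.899, 1.07 and 0.654 NRPKM in resting, 0.950, 0.122 and 0.280 in proliferative and 0.839, 0.638 and 0.284 in *aadd* libraries. Hypertrophic 1 held 1.37, and hypertrophic 2 and 3 held 5.62 and 4.71. Only hypertrophic 2 came above 5 NRPKM, so *Mmp15* did not enter the main test, and the lowest values stood for 1.2 to 4.17 reads.

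**Figure D1:**
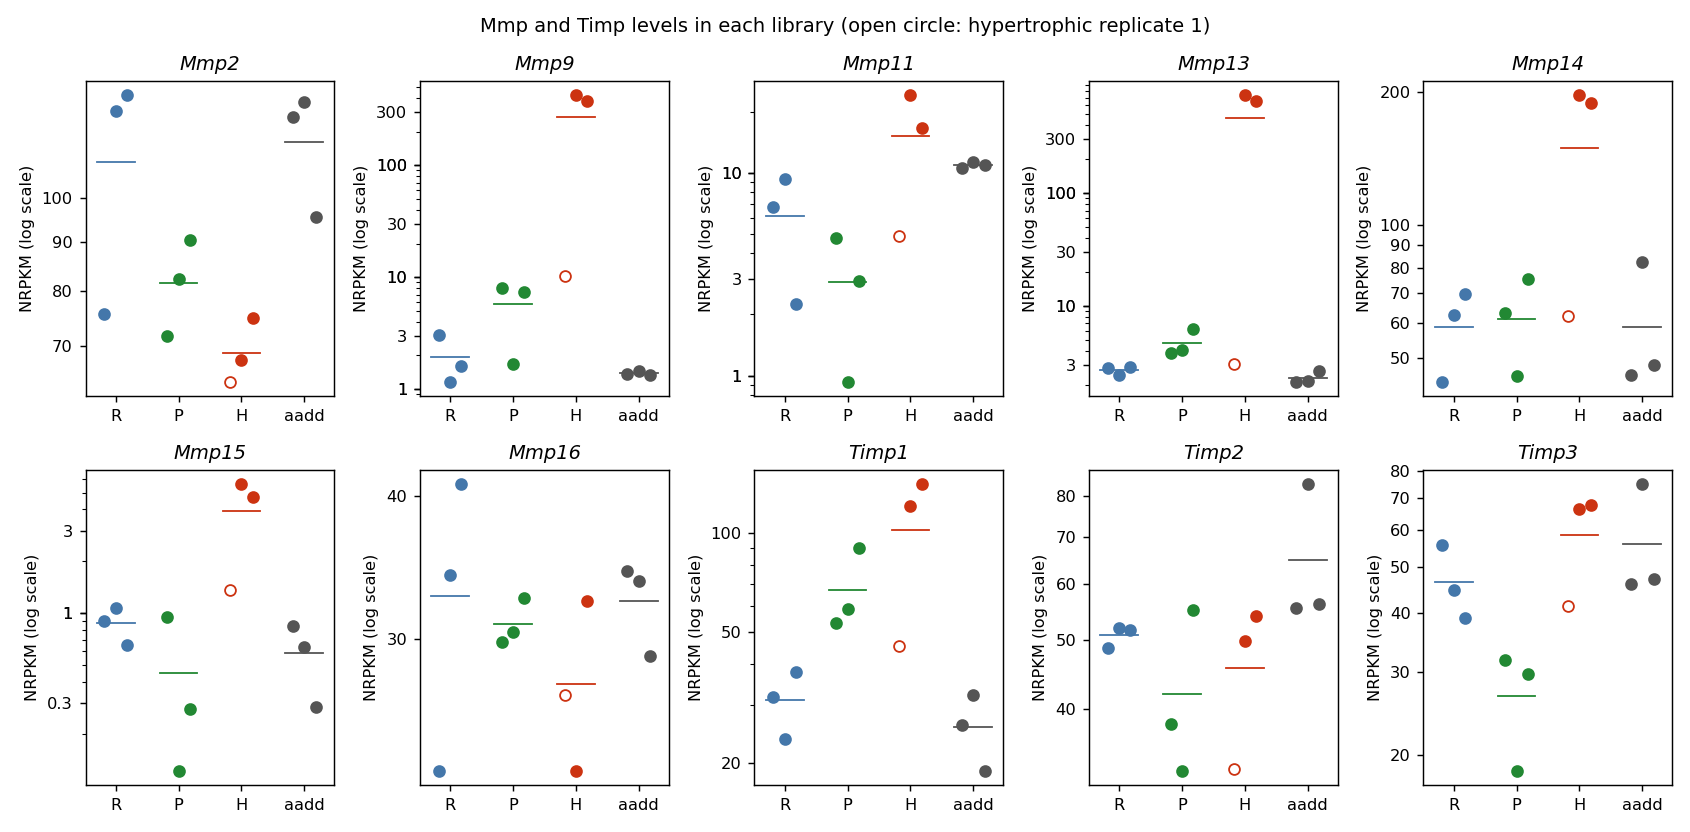
NRPKM (log scale, each panel with its own range) of the 10 genes in each of the 12 libraries, by group (R, WT resting; P, WT proliferative; H, WT hypertrophic; aadd), with the group mean as a line and hypertrophic replicate 1 as an open circle. For *Mmp9* and *Mmp13* hypertrophic 2 and 3 lie far above all other libraries (at least 378 and 661 NRPKM), whereas hypertrophic 1 lies at 10.3 and 3.05.

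*Timp1* (Gene ID 21857, chrX:20870166-20874737, plus strand), a secreted inhibitor, was higher in the proliferative and hypertrophic libraries than elsewhere. It was 31.6, 23.6 and 37.7 NRPKM in resting libraries and 53.2, 58.8 and 89.9 in proliferative ones. Hypertrophic 1 held 45.3, and hypertrophic 2 and 3 held 121 and 141. The *aadd* libraries held 26.1, 32.1 and 18.9. All proliferative and hypertrophic libraries lay above all resting and *aadd* libraries, and hypertrophic 1 lay between the proliferative and resting ranges. Resting and *aadd* libraries overlapped.

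*Timp3* (Gene ID 21859, chr10:86300412-86349505, plus strand), an inhibitor that binds to the matrix, had its lowest levels in the proliferative libraries, at 31.9, 18.6 and 29.7 NRPKM. Resting libraries held 55.6, 44.8 and 39.0. Hypertrophic 1 held 41.5, hypertrophic 2 held 66.3 and hypertrophic 3 held 67.5, so all 3 lay above the proliferative range. The *aadd* levels were 46.0, 74.9 and 47.1 and overlapped those of the resting and hypertrophic libraries. *Timp3* lies inside *Syn3*, which runs on the opposite strand, and 21.3% of its exonic bases are shared with that gene (1.24 to 5.61 NRPKM).

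*Timp2* (Gene ID 21858, chr11:118301061-118355411, minus strand), which blocks MMPs and also takes part in the activation of proMMP2 by MMP14, differed little. Resting libraries held 48.7, 52.1 and 51.8 NRPKM, proliferative 38.2, 32.7 and 55.2, hypertrophic 32.9, 49.9 and 54.2, and *aadd* 55.6, 83.1 and 56.3. The *aadd* libraries lay above all WT libraries, but the lowest of them (55.6) was next to proliferative 3 (55.2).

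The summed level of the 7 MMPs was 156 to 247 NRPKM in resting, 165 to 215 in proliferative and 188 to 258 in *aadd* libraries. It was 173 in hypertrophic 1, 1474 in hypertrophic 2 and 1357 in hypertrophic 3. *Mmp9* and *Mmp13* together made up 1.41% to 7.73% of that sum in 10 libraries and 78.5% and 76.6% in hypertrophic 2 and 3. *Mmp2*, which made up 37.1% to 56.2% elsewhere, made up 4.58% and 5.51% in hypertrophic 2 and 3 while its own level was near that of hypertrophic 1. The 3 TIMPs summed to 110.1 to 190.1 NRPKM in 10 libraries and to 237 and 263 in hypertrophic 2 and 3. The sum of MMPs over the sum of TIMPs was 1.15 to 1.95 in 10 libraries and 6.22 and 5.17 in hypertrophic 2 and 3. Within the TIMPs, *Timp1* made up at most 29.4% of the sum in resting and *aadd* libraries, 43.1% to 53.4% in proliferative libraries, 37.8% in hypertrophic 1 and 51.0% and 53.7% in hypertrophic 2 and 3. These sums are of mRNA levels and say nothing of protein or activity.

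**Figure D2:**
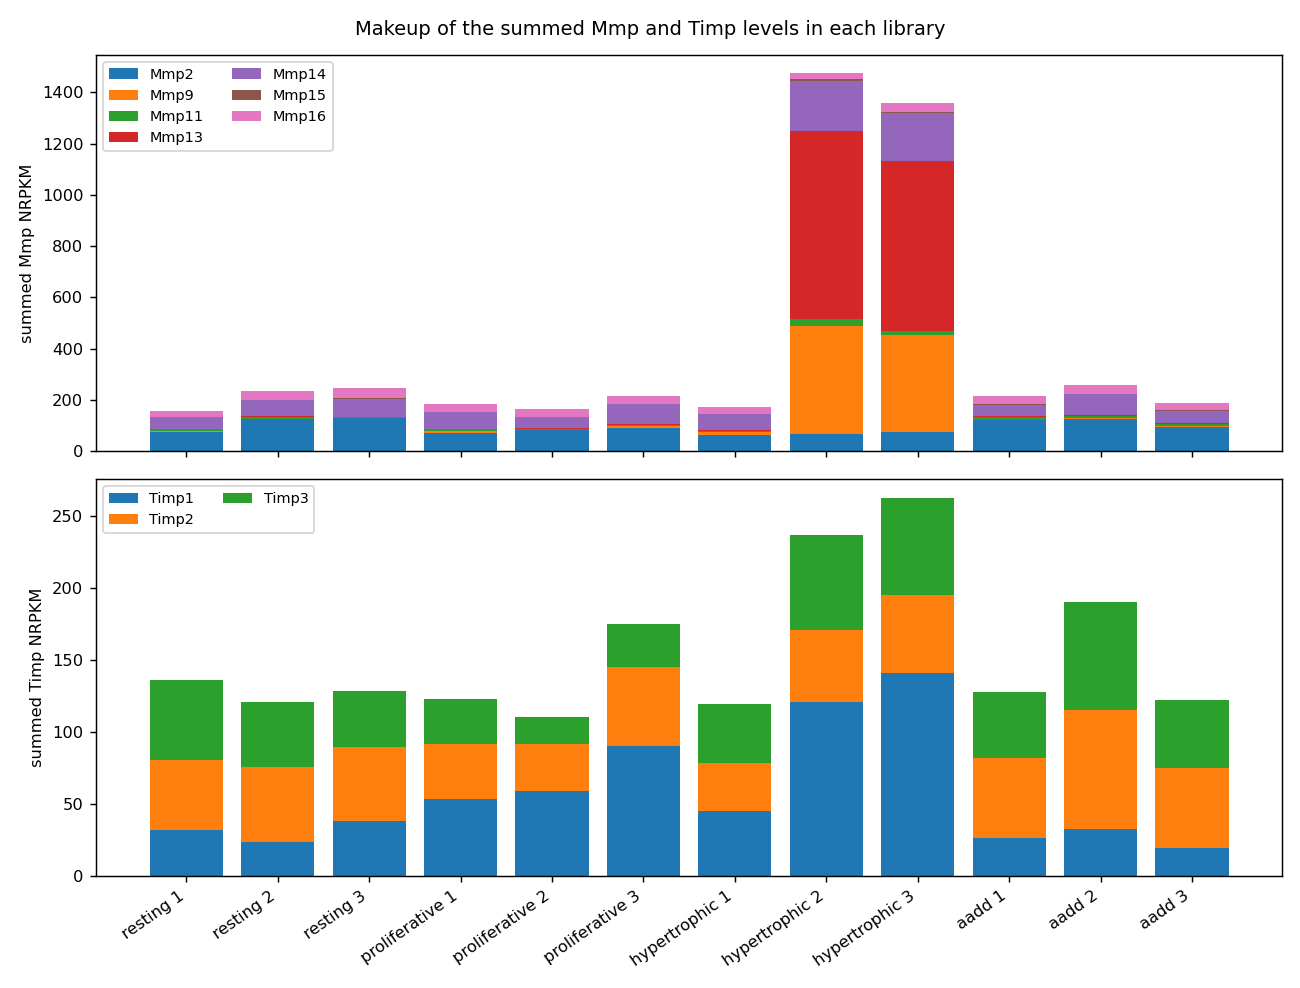
Summed NRPKM of the 7 *Mmp* genes (upper) and the 3 *Timp* genes (lower) in each library, stacked by gene, with both axes starting at 0. *Mmp9* and *Mmp13* take up most of the bars of hypertrophic 2 and 3 and little of any other bar, including that of hypertrophic 1, whose *Mmp* total is 173 NRPKM.

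The groups were compared with limma on log2(NRPKM + 0.1) over the 10936 genes that reached 5 NRPKM in 3 libraries or more. A gene was called at an unadjusted *P* up to 0.05 with a fold change (FC) of at least 2 between WT compartments or 1.5 between *aadd* and WT resting, and the *P* adjusted by Benjamini-Hochberg over all genes tested is given beside it. Of the 10 genes, 9 passed the filter. For a single gene, the smallest two-sided *P* of an exact permutation test with groups of 3 is 0.1.

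Between resting and proliferative chondrocytes, *Timp1* rose and no other gene of the family was called. Its log2 fold change was 1.10 ± 0.28 (SE), with a limma adjusted *P* of 0.15. Over all genes 2.56% were called higher and 2.97% lower. Of the hypertrophic chondrocyte markers 8 of the 10 tested, and of the osteoblast markers 7 of the 8 tested, were also called higher. The *Timp1* call was lost without resting 2 (0.92) and without proliferative 3 (0.88). Proliferative 3 also held the highest marker sums of skeletal muscle (139 NRPKM) and of perichondrium and fibrous tissue (1393) among the proliferative libraries. The part of these cell types in the *Timp1* difference was not tested. The libraries of the groups did not overlap for 3 of the 9 genes, *Timp1*, *Mmp13* and *Timp3*, against 24% of all genes. Of the 9, *Mmp9*, *Mmp11* and *Mmp13* passed the filter only through libraries outside this comparison. *Mmp13* (0.75 ± 0.23, adjusted *P* = 0.2 by limma) and *Timp3* (-0.82 ± 0.26, adjusted *P* = 0.22 by limma) fell short of the FC of 2. No family member passed an adjusted *P* of 0.05 in limma, which 0.622% of all genes did, and 3 of the 9 and 1865 of all genes had an unadjusted *P* under 0.05. With the replicate number as a block, *Mmp9* (1.34, adjusted *P* = 0.18 by limma) was called as well as *Timp1*. *Mmp9* was tested here only through libraries outside the comparison, and whether equal numbers mark a shared origin is not known. *Mmp9* was higher in each proliferative library than in the resting library of the same number. It was also called without proliferative 2 (2.05), and *Mmp11* was called lower without resting 3 (-1.70).

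Between proliferative and hypertrophic chondrocytes, 3 of the 9 genes were called, all higher, against 5.32% of all genes called higher and 4.34% lower. *Mmp9* rose by 4.62 ± 1.52 on the log2 scale and *Mmp11* by 2.35 ± 0.78, each with a limma adjusted *P* of 0.21. *Timp3* rose by 1.13 ± 0.31 (limma adjusted *P* = 0.17). In these 3 genes the libraries did not overlap, as was the case for 24.2% of all genes. *Mmp13* differed by 4.61 ± 2.09 with an unadjusted limma *P* of 0.068 and was not called. The log2 fold change of *Mmp14* was 1.14 ± 0.49, with an unadjusted limma *P* of 0.059. In limma 0 of the 9 genes, and 0% of all genes, had an adjusted *P* under 0.05, while 3 of the 9 and 2115 of all genes had an unadjusted *P* under 0.05. As a description, the median log2 fold change of the 9 genes was 1.13, against 0.04 over all genes. The genes were chosen with earlier results of these data known. Among the libraries compared, *Mmp11* reached 5 NRPKM only in hypertrophic 2 and 3, and *Mmp13* only in those and proliferative 3. *Mmp11* thus passed the filter with the help of libraries outside this comparison.

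Without hypertrophic 1, which leaves 2 hypertrophic libraries, 5 of the 9 genes were called in that comparison and all 5 had an adjusted *P* under 0.05 in limma. Here 18.4% of all genes were called and 17.4% passed the adjusted *P*. *Mmp13* then rose by 7.21 ± 0.26 (limma adjusted *P* = 0.0018), *Mmp9* by 6.38 ± 0.71 (limma adjusted *P* = 0.0089), *Mmp11* by 3.02 ± 0.68 (limma adjusted *P* = 0.04), *Mmp14* by 1.68 ± 0.26 (limma adjusted *P* = 0.017) and *Timp3* by 1.36 ± 0.28 (limma adjusted *P* = 0.033). *Timp1*, at 0.99 ± 0.28 (limma adjusted *P* = 0.067), stayed just under an FC of 2. Hypertrophic 1 stood apart by levels in these same data, and leaving it out takes away most of the spread. The *P* values of this fit are therefore no independent support. The call of *Mmp9* was lost on leaving out proliferative 2 (3.91), hypertrophic 2 (3.71) or hypertrophic 3 (3.79), that of *Mmp11* on leaving out the same libraries (1.72, 1.88 and 2.14), and that of *Timp3* on leaving out proliferative 2 (0.89). With the replicate number as a block *Mmp11* was not called either.

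Between resting and hypertrophic chondrocytes, 4 of the 9 genes were called, all higher, with 5.84% of all genes called higher and 7.2% lower. In resting libraries *Mmp9* and *Mmp13* were at most 3.02 and 2.88 NRPKM. *Mmp9* passed the filter through hypertrophic and proliferative libraries, and *Mmp13* through hypertrophic 2 and 3 and proliferative 3. Their calls and lack of overlap are thus not independent of how they entered the test. *Mmp9* rose by 5.97 ± 1.43 on the log2 scale (limma adjusted *P* = 0.063), *Mmp13* by 5.36 ± 2.07 (limma adjusted *P* = 0.17), *Timp1* by 1.59 ± 0.46 (limma adjusted *P* = 0.093) and *Mmp14* by 1.19 ± 0.48 (limma adjusted *P* = 0.18). The libraries did not overlap for *Mmp9*, *Mmp13*, *Timp1* and *Mmp2*, 4 of 9 genes, against 32% of all genes. *Mmp2* differed by -0.63 ± 0.25 (limma adjusted *P* = 0.17), short of an FC of 2. In limma 0 of the 9 genes passed an adjusted *P* of 0.05, against 6.36% of all genes, and 5 of the 9 and 2890 of all genes had an unadjusted *P* under 0.05. Without hypertrophic 1, 5 were called, among 19.2% of all genes, and 4 passed the adjusted *P*, among 24.2% of all genes. As above, that fit holds 2 hypertrophic libraries and its *P* values follow a choice made on these data. These 4 were *Mmp13* (7.95 ± 0.16, limma adjusted *P* = 0.00017), *Mmp9* (7.72 ± 0.39, limma adjusted *P* = 0.00068), *Timp1* (2.10 ± 0.24, limma adjusted *P* = 0.0046) and *Mmp14* (1.74 ± 0.24, limma adjusted *P* = 0.0072). *Mmp9* and *Timp1* were called under all 14 alternatives. *Mmp13* and *Mmp14* were called without hypertrophic 1 but lost the call on leaving out any other of the 6 libraries (*Mmp13* at 4.02 to 5.40 and *Mmp14* at 0.91 to 1.33 on the log2 scale).

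**Figure D3:**
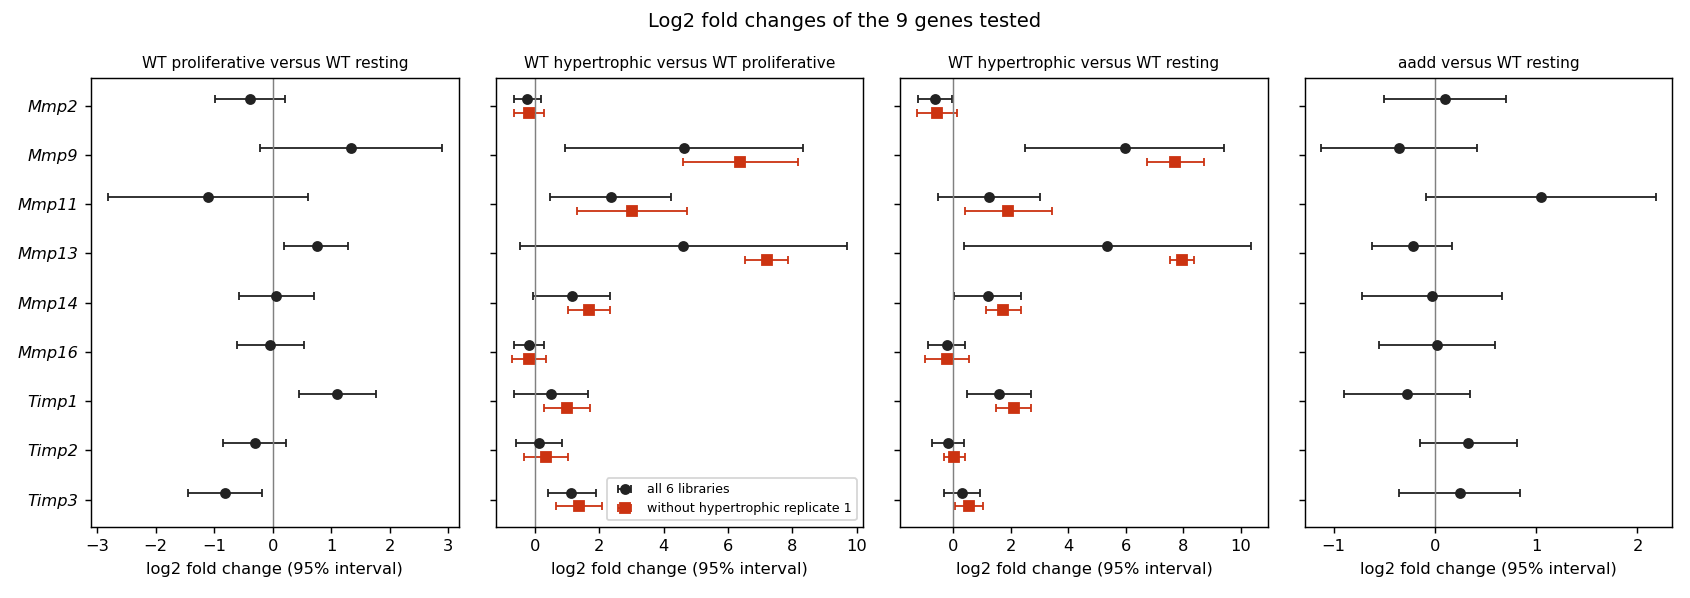
Log2 fold changes of the 9 genes tested with 95% confidence intervals from limma, 1 panel per comparison (x axes differ), over all libraries (black circles) and without hypertrophic 1 (red squares). Against proliferative libraries the interval of *Mmp13* runs from -0.46 to 9.69 with hypertrophic 1 and from 6.54 to 7.88 without it. The second rests on 2 hypertrophic libraries, kept by a choice made on these data.

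Between *aadd* and WT resting chondrocytes, none of the 9 genes was called in limma. Over all genes 3.78% were called higher and 2.78% lower, 0.119% had an adjusted *P* under 0.05, and 0 of the 9 had an unadjusted *P* under 0.05 (1048 of all genes did). *Mmp11* differed by 1.05 ± 0.48 (limma adjusted *P* = 0.57) and *Timp2* by 0.33 ± 0.20 (limma adjusted *P* = 0.67), and these were the 2 genes whose libraries did not overlap, against 15.4% of all genes. *Mmp11* was called higher with a pseudocount of 1 (0.90), with a variance trend (1.05) and without resting 2 (1.45). The 95% interval was -0.50 to 0.70 for *Mmp2*, -0.62 to 0.17 for *Mmp13*, -1.12 to 0.42 for *Mmp9*, -0.72 to 0.66 for *Mmp14* and -0.90 to 0.35 for *Timp1*. Of the 9, *Mmp9* and *Mmp13* passed the filter only through libraries outside this comparison. They were at most 3.02 and 2.88 NRPKM in the resting libraries and lower in *aadd*, so for them the lack of a call decides little. The *aadd* samples took in the whole chondrocyte population, so compartment and genotype cannot be told apart in this comparison. Markers of skeletal muscle also differed, and both of the 2 tested were called higher in *aadd*, *Actc1* by 2.97 and *Mylpf* by 1.82 (limma adjusted *P* of 0.096 and 0.48). Their part in the differences between *aadd* and resting libraries was not tested. *Mmp13* and *Mmp9* in *aadd* libraries, at most 2.64 and 1.45 NRPKM, were also below every proliferative library. The 3 comparisons with WT resting share its libraries.

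Over the 4 groups, limma's F test gave an adjusted *P* under 0.05 for *Mmp9* (0.016) and *Timp1* (0.027), 2 of 9 genes against 13.8% of all genes. *Timp3* (0.061), *Mmp13* (0.086), *Mmp2* (0.1), *Mmp11* (0.11), *Mmp14* (0.15), *Timp2* (0.28) and *Mmp16* (0.74) did not pass. With hypertrophic 1 left out, a choice made on these data, 6 of the 9 genes passed, among 28.1% of all genes (*Mmp9*, *Mmp11*, *Mmp13*, *Mmp14*, *Timp1* and *Timp3*). Without hypertrophic 2 or without hypertrophic 3, 0 did, among 7.16% and 5.74% of all genes, and without resting 2, *aadd* 1 or *aadd* 3, 1 did, among 8.83%, 8.97% and 9.27%. Without resting 1, *Mmp2* (adjusted *P* = 0.028 by limma) passed beside *Mmp9* and *Timp1*, and with a variance trend *Timp3* (adjusted *P* = 0.037 by limma) did.

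The marker genes of other cells of the growth plate moved with the high MMP libraries. All 10 of 10 osteoclast markers (among them *Acp5*, *Ctsk*, *Calcr*, *Ocstamp* and *Siglec15*) were higher in hypertrophic 2 and 3 than in the other 10 libraries. Of all genes tested, 16.4% were. That share covers genes that passed the filter, as 3 of these 10 markers did. A marker that reached 5 NRPKM in hypertrophic 2 and 3 alone could not pass, so count and share are not alike. The osteoclast markers summed to 933 and 621 NRPKM there, 41.2 in hypertrophic 1, 22.2 to 29.3 in proliferative, 15.2 to 23.8 in resting and 8.39 to 24.1 in *aadd* libraries. *Siglec15* was listed at 0 in all 10 other libraries and was 4.23 and 3.98 NRPKM in hypertrophic 2 and 3. *Acp5*, which encodes the tartrate-resistant phosphatase of osteoclasts, was 246 and 200 NRPKM in hypertrophic 2 and 3 and 2.92 in hypertrophic 1. All 10 of 10 endothelial markers were likewise higher, with sums of 304 and 212 NRPKM against 21.7 in hypertrophic 1, 6.95 to 14.2 in proliferative, at most 12.8 in resting and 5.15 to 37.3 in *aadd* libraries. Of these endothelial markers 2 were among the genes tested. The part of these cell types in the levels of *Mmp9*, *Mmp13* and *Mmp14* was not tested.

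Markers of cartilage matrix such as *Col2a1* and *Acan* moved the opposite way, and all 10 of 10 were lower in hypertrophic 2 and 3 than in the other libraries, against 14.8% of all genes tested. The cartilage markers summed to 710.2 and 1008 NRPKM there against 3106 in hypertrophic 1, 3150 to 5293 in proliferative, 2765 to 4102 in resting and 2473 to 3220 in *aadd* libraries. Markers of hypertrophic chondrocytes differed less among the 3 libraries, at 1794 in hypertrophic 1, 2804 in hypertrophic 2 and 3217 in hypertrophic 3, against 637 to 937 in proliferative, 84.3 to 91.3 in resting and 58.1 to 71.8 in *aadd* libraries. *Spp1* alone, the osteopontin gene, was 24.1, 1083 and 979 NRPKM in hypertrophic 1, 2 and 3. Osteoblast markers summed to 1755 in hypertrophic 1 and 2428 and 3523 in hypertrophic 2 and 3, 432 to 1167 in proliferative, 174 to 383 in resting and 125 to 412 in *aadd* libraries. Of these osteoblast markers 7 of 10, and of the hypertrophic chondrocyte markers 3 of 10, were higher in hypertrophic 2 and 3 than in the other 10 libraries, against 16.4% of all genes tested. Of the osteoblast markers 8, and of the hypertrophic chondrocyte markers all 10, were among the genes tested. Both lists hold *Alpl*, *Ibsp* and *Sp7*. Macrophage markers (9 of 10 found) summed to 114 and 71.7 NRPKM in hypertrophic 2 and 3 and to at most 32.8 elsewhere. Of the 9, 2 were higher in both, against 16.4% of all genes tested, and only 1 of the 9 was itself tested. These were *Csf1r* (56.7 and 49.6 NRPKM, at most 2.71 elsewhere), which osteoclasts express too, and *Lyz2* (37.1 and 10.5, at most 5.51 elsewhere). The other 7 were not higher in both. Erythroid markers (7 of 10 found) summed to 449.6 and 481 NRPKM in those libraries and to at most 216 elsewhere. Of the 7, 6 were higher in both, against 16.4% of all genes tested, and 4 of the 7 were themselves tested. Markers of perichondrium and fibrous tissue summed to 1535 and 2313 there against at most 1393. Of these 10, 4 were higher and 1 lower in both, against 16.4% and 14.8% of all genes tested, and 9 of the 10 were themselves tested. Neutrophil markers summed to 31.8 NRPKM in hypertrophic 2, 4.18 in hypertrophic 3 and at most 6.19 elsewhere. Of these 8, 1 was higher in both, against 16.4% of all genes tested, and *Elane* was listed at 0 throughout. None of the 8 was among the genes tested. Muscle markers were highest in proliferative 3 (139 NRPKM) and were 31.5 to 46.6 in hypertrophic 2 and 3, 18.4 to 65.0 in *aadd* and 8.20 to 12.4 in resting libraries.

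**Figure D4:**
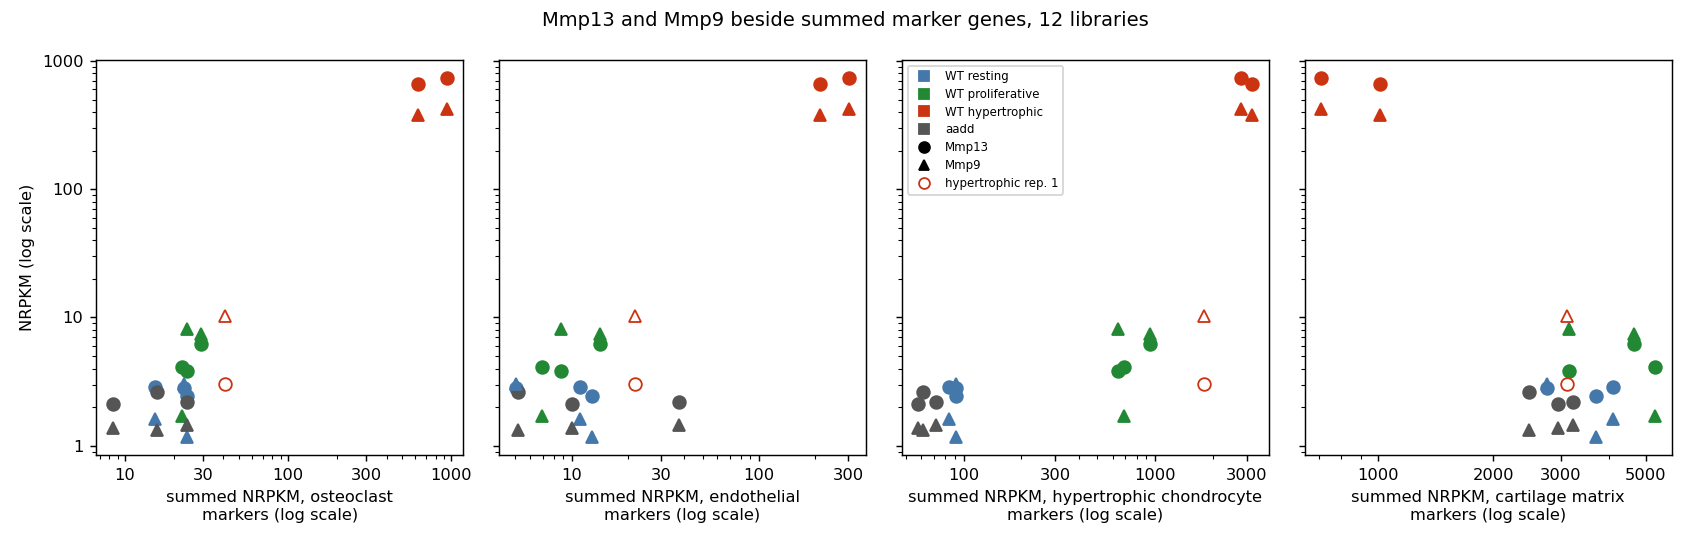
NRPKM of *Mmp13* (circles) and *Mmp9* (triangles) in each library against the summed NRPKM of 10 markers each of osteoclasts, endothelium, hypertrophic chondrocytes and cartilage matrix (all axes log scale), with hypertrophic replicate 1 as open symbols. On the hypertrophic chondrocyte axis hypertrophic 1 lies at 1794, nearer to hypertrophic 2 and 3 than to the resting libraries, but on the osteoclast axis it lies at 41.2 beside the libraries with low *Mmp13*.

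As a description, the Pearson correlation of log2 levels over the 12 libraries was 0.95 between *Mmp9* and *Mmp13*, 0.92 between *Mmp13* and *Mmp14*, 0.89 between *Mmp9* and *Mmp14* and 0.86 between *Mmp9* and *Timp1*. *Mmp11* and *Timp3* reached 0.89 and *Mmp2* and *Mmp16* 0.78. *Mmp2* ran against *Mmp9* at -0.66. The libraries of a group share their compartment, and hypertrophic 2 and 3 hold the extreme levels of *Mmp9*, *Mmp13* and *Mmp14*. The genes tested most like *Mmp13* were *Xpr1* (0.985), *Spp1* (0.984), *Arsb*, *Gpx1* and *Rnf19b*. Those most like *Mmp9* were *Atp6v0c* (0.982), a subunit of the proton pump, *Ckb*, *Spp1*, *Hipk1* and *Plk2*. *Mmp14* was most like *Pecam1* (0.978), an endothelial adhesion gene, followed by *Cd97*, *Bmp2k*, *Midn* and *Fosl2*. For *Mmp2* they were *Galnt18* (0.987), *Col6a1*, *Pkd1*, *Atxn1* and *Col6a2*, and for *Timp2* they included the collagen genes *Col3a1* (0.900) and *Col5a1* (0.897) after *Antxr1* (0.914). *Timp3* was most like *Smurf1* (0.921) and *Mmp11* most like *Inpp4b* (0.949), while the closest gene to *Mmp16*, *Ctage5*, reached 0.858.

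Of 16 activators, binding proteins and other regulators of MMPs, 11 were tested. From resting to proliferative 0 were called in limma, against 2.56% of all genes called higher and 2.97% lower. There 2 of the 11, and 1865 of all 10936 genes, had an unadjusted limma *P* under 0.05. From proliferative to hypertrophic 4 were called, all higher, against 5.32% of all genes called higher. *Pcsk6*, a proprotein convertase, rose by 2.26 ± 0.36 on the log2 scale, *Serpine2*, a serine protease inhibitor, by 2.66 ± 0.65, *Cd44*, a hyaluronan receptor that can hold MMP9 at the cell surface, by 2.21 ± 0.82, and *Plaur*, the urokinase receptor, by 2.06 ± 0.62 (limma adjusted *P* of 0.12 to 0.23). *Pcsk6* was high in all 3 hypertrophic libraries, at 48.7, 40.4 and 67.7 NRPKM, with hypertrophic 1 among them, and at most 14.4 in the others. *Serpine2* was 44.7, 225 and 169 NRPKM in the hypertrophic libraries and at most 24.6 elsewhere. Against resting, *Pcsk6* (2.87 ± 0.24, limma adjusted *P* = 0.0035) and *Serpine2* (3.04 ± 0.62, limma adjusted *P* = 0.043) were called higher, 2 of 11 against 5.84% of all genes. *Reck*, a membrane-anchored MMP inhibitor, was not called, and was 54.7 NRPKM in hypertrophic 1 and 20.1 and 20.2 in hypertrophic 2 and 3. In *aadd* libraries *Cldn1* was the one gene called, higher by 2.37 ± 0.68 (limma adjusted *P* = 0.33), against 3.78% of all genes called higher.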

How the data were processed

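RNA was captured by LCM, amplified (Ovation RNA-Seq System V2), tagmented with Nextera and sequenced. The authors deposited RPKM values, normalized further between libraries in GeneSpring (NRPKM, linear scale), after removing low-quality, multiply aligned and duplicate reads. The submitters' processing notes name TopHat and mm10. The normalization between libraries, the annotation version and the use of strand are not given in the sources used here. No counts were used. Depth was read from the most frequent low value of 1589 single-exon receptor and keratin-associated genes, taken as 1 read, and covers counting error only.

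Here log2(NRPKM + 0.1) was tested in limma 3.58.1 (R 4.3.3), with Python 3.11.15, pandas 2.3.3, numpy 2.4.6 and matplotlib 3.10.9. Each comparison used its 6 libraries without covariates, with adjustment over all 10936 genes. The fit was tested on simulated data for resting and proliferative libraries only. Fold changes are on this log2 scale, which understates those of low genes. All 10 genes are named. Pathway genes were named where called or where a level is needed to read a result, and likeness is the Pearson correlation over 12 libraries (5 genes each, the closest given; that of *Timp1* is not reported here). Genes and lists were chosen with earlier results of these data known. Loci are from GENCODE vM21 and promoters from RefSeq.

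Deviations from the group means of same-numbered libraries correlated across genes at 0.281, 0.179 and 0.198 between resting and proliferative, so a fit with the number as a block is given beside the unblocked fit there. The labels do not say what the number marks, and the study's own gene lists give these libraries in another order, so whether it marks a shared origin is not known. In the other comparisons at least 1 pair was under 0.1. As alternatives, each library was left out in turn, the replicate number was added as a block, all 12 libraries were fitted together, and a variance trend, quantile normalization, a median-of-ratios rescaling, a pseudocount of 1, no filter and a filter on the 6 libraries of a comparison were tried.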

Additional observations from a re-analysis of the deposited data

How the results depend on the processing

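The number of the 9 genes called from resting to proliferative was 1, and 2 with quantile normalization (5.6% of all genes called), 2 with the replicate block (6.14%) and 0 to 2 on leaving out a library (4.65% to 7.4%). From proliferative to hypertrophic it was 3, and 5 with all 12 libraries in one fit (11.5% of all genes called), 5 with a variance trend (10% of all genes), 4 with a pseudocount of 1 (*Mmp14* added, 9.09% of all genes) and 0 to 5 on leaving out a library (6.02% to 18.4%). The number with an adjusted *P* under 0.05 there was 0, and 2 with all 12 libraries (6.45% of all genes) and 0 to 5 on leaving out a library (0% to 17.4%). From resting to hypertrophic 4 were called, 2 to 5 on leaving out a library (10.9% to 19.2%), and 0 passed the adjusted *P*, 3 with all 12 libraries (14.7% of all genes), 1 with a variance trend (7.63%) and 0 to 4 on leaving out a library (1.43% to 24.2%). Between *aadd* and resting 0 were called, 1 with a pseudocount of 1 (5.94% of all genes), 1 with a variance trend (6.39%) and 0 to 1 on leaving out a library (5% to 9.12%). The F test passed 2 genes, 1 without the filter (3.93% of all genes), 3 with a variance trend (15.3%) and 0 to 6 on leaving out a library (5.74% to 28.1%). Directions turned only in genes that were not called, over ranges on leaving out a library of -0.14 to 0.26 (*Mmp14*) and -0.27 to 0.14 (*Mmp16*) from resting to proliferative, -0.04 to 0.34 (*Timp2*) from proliferative to hypertrophic, -0.33 to 0.03 (*Timp2*) from resting to hypertrophic, and, in *aadd*, -0.15 to 0.23 (*Mmp2*), -0.64 to 0.01 (*Mmp9*), -0.30 to 0.12 (*Mmp14*) and -0.21 to 0.20 (*Mmp16*). With quantile normalization *Mmp14* was -0.0016 from resting to proliferative, and with rescaling *Mmp16* was -0.00093 in *aadd*. The cause of these shifts was not tested. Quantile normalization called 3.27% of all genes higher and 2.32% lower from resting to proliferative. From resting to hypertrophic, *Mmp14* was not called with quantile normalization (1.16) or without the filter (1.19), nor *Mmp13* without the filter (5.36). With the filter over the 6 libraries compared, *Mmp13* did not enter the test from resting to hypertrophic, nor *Mmp11* that from proliferative to hypertrophic. This left 3 and 2 genes called (12.3% and 9.36% of all genes). From resting to proliferative *Mmp9*, *Mmp11* and *Mmp13* did not enter, and *Timp1* was still called (4.5% of all genes). Between *aadd* and resting *Mmp9* and *Mmp13* did not enter. Without a filter *Mmp15* was called in hypertrophic libraries against proliferative (2.94) and resting (1.84) ones, with limma adjusted *P* of 0.3 and 0.21. In the comparisons with a same-numbered pair under 0.1, the replicate block called 2 genes from proliferative to hypertrophic (*Mmp11* was no longer called, 9.38% of all genes were) and changed no other number of called genes. From resting to proliferative and from resting to hypertrophic, 6 of 6 libraries correlated best with their own number. In the other comparisons 3 of 6 did, and whether the numbers pair libraries is not known. Levels under about 1 NRPKM rest on few reads.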

Other observations

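The matrix proteins that MMPs cut did not share one pattern. Of 12 such genes 11 were tested, and from proliferative to hypertrophic 2 were called higher and 4 lower, against 5.32% and 4.34% of all genes. *Col10a1* rose by 1.45 ± 0.40 on the log2 scale and *Spp1* by 4.44 ± 1.47, and the cartilage genes *Acan* (-1.69 ± 0.51), *Col9a1* (-2.16 ± 0.64), *Col2a1* (-1.58 ± 0.52) and *Col11a1* (-1.04 ± 0.39) fell, with limma adjusted *P* of 0.18 to 0.23. *Col2a1*, the main cartilage collagen and a substrate of MMP13, was 898 NRPKM in hypertrophic 1 and 245 and 343 in hypertrophic 2 and 3. From resting to proliferative *Col10a1* was the one gene called (2.56% of all genes were called higher). Between *aadd* and resting 0 of the 11 were called in limma, against 3.78% of all genes called higher and 2.78% lower. There 0 of the 11, and 1048 of all 10936 genes, had an unadjusted limma *P* under 0.05.

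Of 10 transcription factors and regulators of transcription that act on *Mmp13* or *Mmp9*, or on hypertrophy, 9 were tested. *Runx2* was 135, 102 and 115 NRPKM in hypertrophic 1, 2 and 3, *Mef2c* 112, 66.8 and 76.8, and *Sp7* 126, 112 and 154, and all 3 rose from resting to hypertrophic (1.97 ± 0.26, 3.06 ± 0.29 and 4.81 ± 0.68, limma adjusted *P* of 0.013, 0.0044 and 0.016). *Hdac4*, a histone deacetylase, fell by 1.02 there (limma adjusted *P* = 0.069). Over all genes 5.84% were called higher and 7.2% lower there. From resting to proliferative, 4 were called, all higher (*Mef2c*, *Runx2*, *Runx3* and *Sp7*), against 2.56% of all genes called higher. From proliferative to hypertrophic 0 were called in limma, against 5.32% of all genes called higher and 4.34% lower. There 2 of the 9, and 2115 of all 10936 genes, had an unadjusted limma *P* under 0.05. *Fosl2*, an AP-1 subunit, was 11.0 NRPKM in hypertrophic 1 and 52.6 and 57.2 in hypertrophic 2 and 3. *Runx3* was 70.6 NRPKM in hypertrophic 1 and 14.2 and 18.1 in hypertrophic 2 and 3. In *aadd* libraries *Jun* was called higher (1.16 ± 0.15, limma adjusted *P* = 0.076) and *Runx3* lower (-2.22 ± 0.36, limma adjusted *P* = 0.13), against 3.78% and 2.78% of all genes. Muscle markers, at 18.4 to 65.0 NRPKM in *aadd* and 8.20 to 12.4 in resting libraries, moved with that comparison, and their part in it was not tested.

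The other 17 *Mmp* and *Timp* genes were low, and of them *Mmp23* alone entered the test and was not called. Of the 17, 4 were higher and 0 lower in both hypertrophic 2 and 3 than in the other 10 libraries, against 16.4% and 14.8% of all genes tested. These shares cover genes that passed the filter, as only *Mmp23* did here, so they are not like the counts. *Mmp8*, the neutrophil collagenase, was 0.646 NRPKM in hypertrophic 1 and 4.12 and 7.85 in hypertrophic 2 and 3, and *Mmp10*, a stromelysin, was 0.250, 2.08 and 3.47. *Mmp27* was 0.517, 1.98 and 5.15. *Timp4* did not exceed 0.963 NRPKM in any library.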
